A study of Mus musculus with 12 samples.

Results

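The genes described here are 32 genes of glycolysis and of the response to low oxygen: the glucose transporter Slc2a1, hexokinases, the enzymes from glucose to lactate, the lactate carriers, the transcription factor subunit Hif1a and the genes known as its targets. They were taken by symbol from a list of known pathway members, which was chosen with earlier results of these data known. All 32 were found among the 55414 gene IDs of each count table, and all 32 passed the filter on low counts, as did 13403 genes in all. They were followed in osteoclasts, the multinucleated cells that resorb bone, over 4 groups of cultures and in each of the 12 libraries.

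The mice were males, 7 to 8 weeks old. Their bone marrow was grown into macrophages with M-CSF, the macrophage growth factor, at 30 ng/ml, and RANKL, which drives osteoclast formation, was given from day 3 on for 4 days. The sources used here give no concentration of it for these cultures. The groups cross wild type or Notch2 mutant cells with a Hes1 gene that is flanked by loxP sites and intact (Hes1 loxP) or deleted (Hes1 deletion), with 3 libraries each. They are wild type Hes1 loxP, Notch2 mutant Hes1 loxP, wild type Hes1 deletion and Notch2 mutant Hes1 deletion, so that no group carries an unmodified Hes1 by these labels. Notch2 is a receptor of the Notch family, whose signals induce the repressor Hes1. The sources used here do not state the kind of Notch2 mutation, the agent of the deletion or whether each culture came from its own mouse. The labels call the samples biological replicates; without a stated animal per culture, p-values measure the spread between these samples.

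Glycolysis splits glucose to pyruvate and yields ATP and, when pyruvate is reduced by lactate dehydrogenase, lactate that leaves the cell through monocarboxylate carriers. HIF-1 is a pair of proteins, HIF-1alpha (encoded by Hif1a) and ARNT, that binds a short core motif near its targets. In oxygenated cells prolyl hydroxylases, the products of Egln1, Egln2 and Egln3, mark HIF-1alpha for destruction, so the protein is controlled largely after translation and Hif1a mRNA does not measure it. Many glycolysis genes are HIF targets, as is Egln3 itself. Osteoclasts are rich in mitochondria and also use glycolysis while they form and resorb bone.

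Libraries held 13832368 to 19293772 counts assigned to gene IDs. All 12 osteoclast markers checked were detected, and their summed level lay between 31800 and 50900 CPM (counts scaled to the total of the library). The targeted gene Hes1 was near the limit of detection everywhere: 6, 11 and 6 counts in wild type and 3, 2 and 2 in mutant loxP libraries, and after deletion 0, 0 and 2 in wild type and 0, 1 and 1 in mutant ones. Among wild type cells with Hes1 deleted, replicate 3 stood apart in the genes described here, so results that rest on it are given with and without it. In bulk samples, fewer cells of a type and less RNA per cell cannot be told apart.

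Enzymes of glycolysis were the most abundant members. Per kilobase of annotated exon, Aldoa, an aldolase that splits fructose bisphosphate, stood at 1029 ± 69.8 CPM per kb (SD, n = 3) in wild type Hes1 loxP cells. Pkm, the pyruvate kinase of most tissues, followed at 650 ± 33.9, Gapdh, which makes the first NADH of the pathway, at 528 ± 15.9, and Pgk1, the phosphoglycerate kinase, at 457 ± 34.9 CPM per kb. Pgk1 did not differ beyond its spread from Ldha, the lactate dehydrogenase subunit at 448 ± 49.6, and neither did Ldha from the enolase Eno1 at 383 ± 27.1 CPM per kb. Tpi1, the triose isomerase, stood at 290 ± 23.5, Pgam1, the phosphoglycerate mutase, at 249 ± 19.9, and Gpi1, the glucose phosphate isomerase, at 192 ± 16.6 CPM per kb. All other members were at or below the 40.4 ± 5.23 CPM per kb of Bnip3, a mitophagy receptor. Hif1a stood at 20.6 ± 1.44 and the prolyl hydroxylase gene Egln1 at 21.8 ± 2.50 CPM per kb, which overlapped. The lowest were Egln3 at 2.80 ± 0.371, Ankrd37 at 0.614 ± 0.188 and the neuronal enolase Eno2 at 0.311 ± 0.0762 CPM per kb. The length of the principal transcript was also used in place of all exons. Gapdh (1538 CPM per kb) then stood above Pkm (1337) and Eno1 (1017) above Ldha (840). Likewise Hk1 (81.6) and Vegfa (76.3) stood above Bnip3 (52.15), so the order of upper and lower members depends on the length used.

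**Figure D1:**
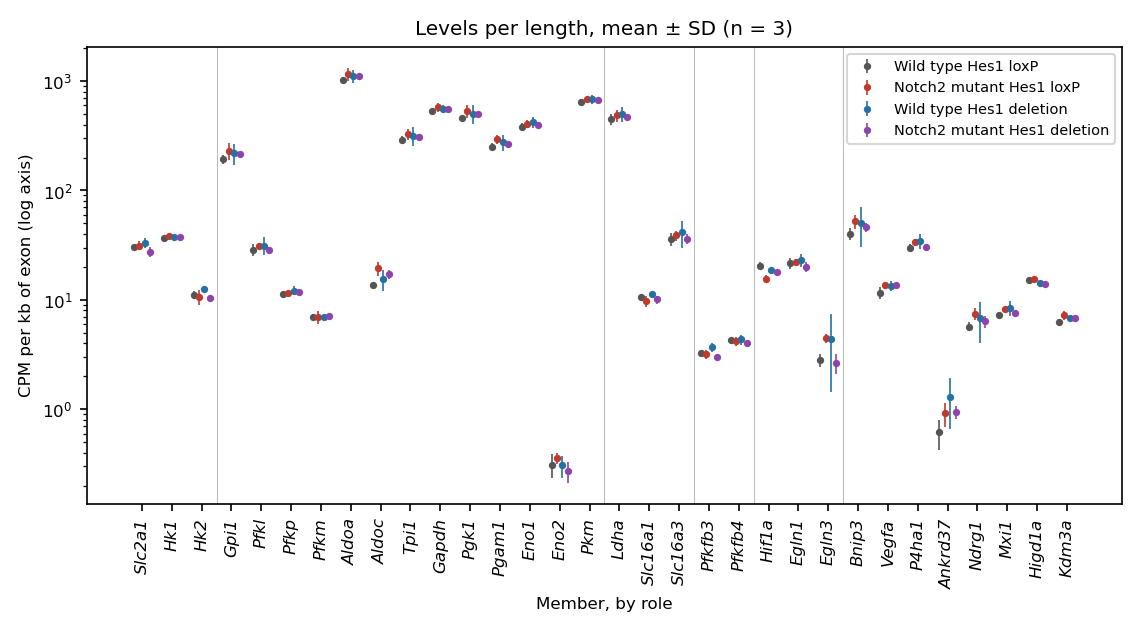
Level of each of the 32 members per kilobase of annotated exon (CPM per kb, log axis), as the mean of 3 libraries with its SD for each of the 4 groups, ordered by role. The 9 members with the highest levels lie between 192 (Gpi1) and 1029 (Aldoa) CPM per kb in wild type Hes1 loxP cells. The error bars are widest for Egln3 and Ankrd37 in the wild type Hes1 deletion group.

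In several families of isozymes, most of the mRNA came from 1 gene. Per exon length, Aldoa made up 98.3 to 98.8% of aldolase transcripts over the 12 libraries and Eno1 98.7 to 99.0% of enolase transcripts. Ldha made up 89.7 to 93.0% of Ldha and Ldhb together. Slc16a3, the carrier MCT4 of lactate-exporting cells, held 70.1 to 82.8% against Slc16a1, the carrier MCT1. Among phosphofructokinases the liver type Pfkl held 57.9 to 64.6%, and among hexokinases Hk1 held 48.5 to 57.1%, with Hk3 at 27.0 to 37.2% and the inducible Hk2 at 13.2 to 19.2%. Among the bisphosphate kinase genes, whose product fructose 2,6-bisphosphate activates phosphofructokinase, no gene held most of the transcripts. Pfkfb4 was at 33.3 to 40.1%, Pfkfb3 at 25.6 to 33.2%, Pfkfb2 at 24.9 to 32.6% and Pfkfb1 at 3.69 to 8.81%. Egln3 had 2.67 to 13.1% of the prolyl hydroxylase transcripts, a wide range, with the remainder in Egln1 and Egln2. Principal transcript lengths gave Hk1 64.9 to 72.4%, Pfkl 50.5 to 56.6% and Egln3 2.28 to 11.6%.

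The stretches before the start sites of 5 members are shown because these genes carry calls reported below and hold the HIF core outside annotated exons. Of these, Hif1a was called with all 12 libraries and the filter on low counts. Egln3, Bnip3, Mxi1 and Pgam1 were not, and are included for calls made without wild type Hes1 deletion replicate 3. The sequences are from RefSeq (GRCm38.p6), which held start sites for 31 of the 32 members. The letters searched were ACGTG and GCGTG on both strands (CACGT and CACGC on the strand shown); capitals mark them, and CACGTG counts as 1 match on each strand.
Hif1a: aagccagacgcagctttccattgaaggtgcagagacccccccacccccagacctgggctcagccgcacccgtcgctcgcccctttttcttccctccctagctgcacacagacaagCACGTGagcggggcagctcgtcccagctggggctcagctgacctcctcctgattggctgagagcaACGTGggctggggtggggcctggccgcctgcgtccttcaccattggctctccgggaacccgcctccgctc
Egln3: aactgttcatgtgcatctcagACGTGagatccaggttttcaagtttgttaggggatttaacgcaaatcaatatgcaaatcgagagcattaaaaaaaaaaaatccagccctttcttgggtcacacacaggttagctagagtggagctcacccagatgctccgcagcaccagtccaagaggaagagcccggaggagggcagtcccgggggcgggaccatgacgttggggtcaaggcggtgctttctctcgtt
Bnip3: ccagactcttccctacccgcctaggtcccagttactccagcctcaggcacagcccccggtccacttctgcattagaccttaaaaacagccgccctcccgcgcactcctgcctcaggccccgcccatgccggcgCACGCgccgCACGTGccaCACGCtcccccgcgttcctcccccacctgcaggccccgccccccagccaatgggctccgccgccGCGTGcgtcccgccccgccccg
Mxi1: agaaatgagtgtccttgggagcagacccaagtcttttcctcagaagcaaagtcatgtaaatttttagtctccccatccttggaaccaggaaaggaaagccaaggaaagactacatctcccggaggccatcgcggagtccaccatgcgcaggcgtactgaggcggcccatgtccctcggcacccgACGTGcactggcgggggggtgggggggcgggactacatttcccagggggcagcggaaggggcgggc
Pgam1: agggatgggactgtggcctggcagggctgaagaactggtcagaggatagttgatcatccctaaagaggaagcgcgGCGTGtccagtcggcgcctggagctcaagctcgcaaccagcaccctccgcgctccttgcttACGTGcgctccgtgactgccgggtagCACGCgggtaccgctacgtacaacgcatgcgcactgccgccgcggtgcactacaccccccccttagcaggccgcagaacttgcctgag
The Hif1a and Mxi1 stretches lie before RefSeq start sites inside the GENCODE gene, the others before or near its outer end. They lie at chr12:73907617-73907866 on the plus strand (Hif1a), chr12:54203875-54204124 on the minus strand (Egln3), chr7:138909520-138909756 on the minus strand (Bnip3), chr19:53329163-53329412 on the plus strand (Mxi1) and chr19:41911621-41911870 on the plus strand (Pgam1). Bnip3 holds 5 cores, Hif1a 3, Pgam1 3, and Egln3 and Mxi1 1 each. Of 48 member start sites, 37 (77.1%) had a core within 250 bases upstream, against 55.2% of 12408 start sites of the genes tested and 38.6% of all 32851. The stricter ACGTG was found at 23 (47.9%), against 21.5% and 16.6%. A match is only a description of the letters, and no binding was measured.

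The 32 members together held 1.59 to 2.09% of all counts, with the lowest share in wild type Hes1 deletion replicate 3 and the highest in Notch2 mutant Hes1 loxP replicate 3. Hk1 was the steadiest, with its highest library at 1.09 times the lowest (308.9 to 335.5 CPM), and Egln3 the most variable, at 6.04 times (3.07 to 18.5 CPM). Wild type Hes1 deletion replicate 3 was the lowest of its 3 libraries for 28 of the 32 members, and for 33.1% of all genes tested. It was the lowest of all 12 libraries for 17 members. The median log2 ratio of the members to the other 2 libraries of the group was -0.33 there, against 0.03 over all genes.

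The lowest ratios in that library were those of Egln3, Ankrd37, Ndrg1 and Bnip3, while the median ratio was 0.757 for the 13 glycolytic enzymes and 0.758 for the 8 remaining HIF targets among the members. Egln3 was at 3.07 CPM against 16.0 in the mean of the other 2, a ratio of 0.191, the second lowest among 10554 genes with a mean count of at least 50. Ndrg1, a stress-responsive gene, had a ratio of 0.431 (23.8 against 55.1 CPM) and Bnip3 of 0.438 (61.6 against 140.5 CPM), the ranks 6 and 7. Ankrd37, with few counts, had a ratio of 0.342. Slc16a3 followed at 0.601 and Gpi1 at 0.664, while Hk2, Hk1, Higd1a, Pfkm, Hif1a and Slc16a1 had the highest ratios, from 0.936 to 1.11. Of 36 other HIF targets tested, 26 were lowest in the same library, compared with 4 of 18 other glycolysis genes and 0 of 8 genes of the pentose phosphate pathway, the branch that makes NADPH and ribose. The osteoclast markers other than Ctsk summed to 27710 CPM there, against 33070 and 32730 in replicates 1 and 2. The macrophage markers stood at 4608 against 4684 and 4779 CPM, the stromal and osteoblast markers at 332 against 348 and 349, and the neutrophil markers at 266 against 191 and 219. Their part in the low values was not tested, and the labels give no reason to set the library aside.

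**Figure D2:**
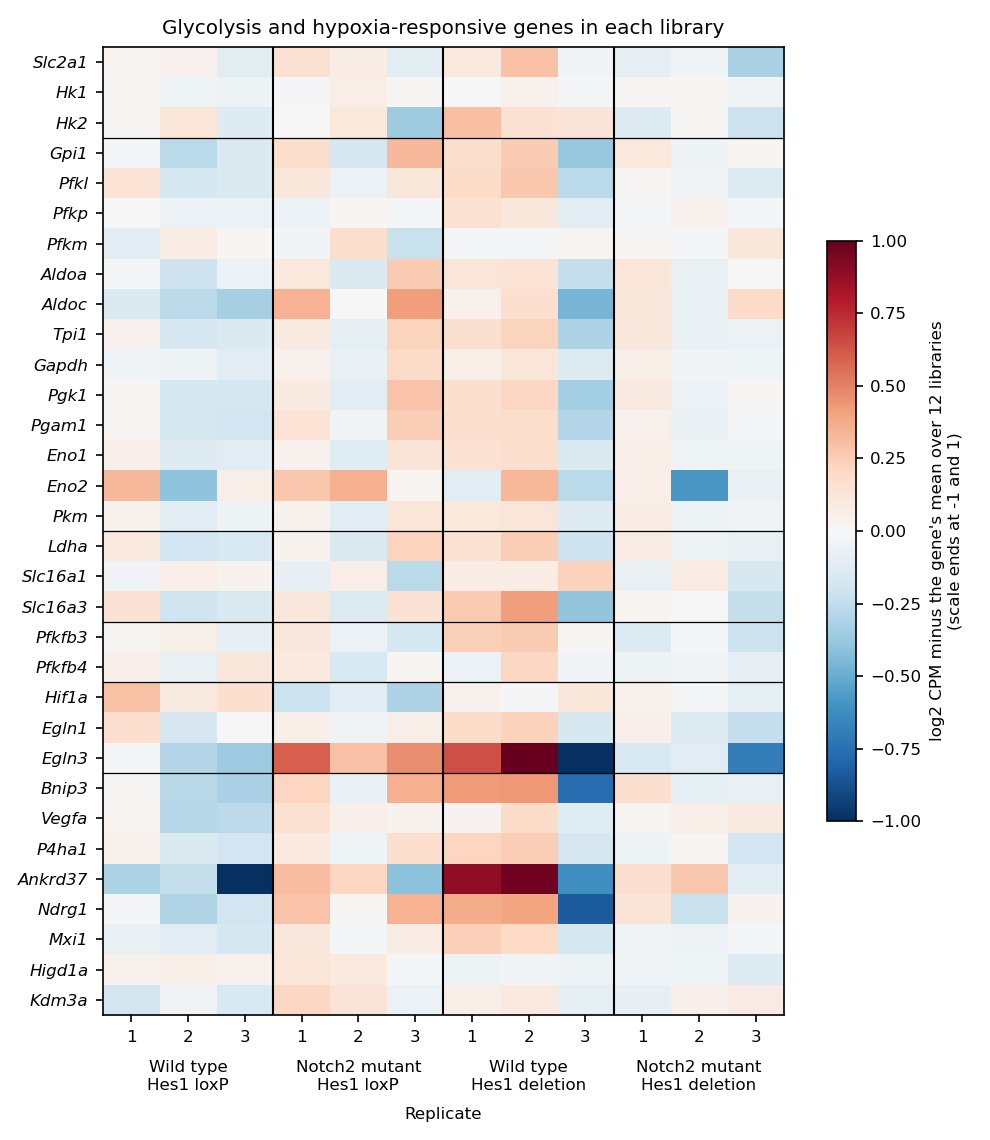
Log2 CPM of each member in each of the 12 libraries, minus the gene's mean over all 12, with colours that end at -1 and 1 and lines between the groups and the roles. Wild type Hes1 deletion replicate 3 is blue for most members, replicates 1 and 2 are red for most, and Hif1a is blue in the 3 Notch2 mutant Hes1 loxP libraries.

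**Figure D3:**
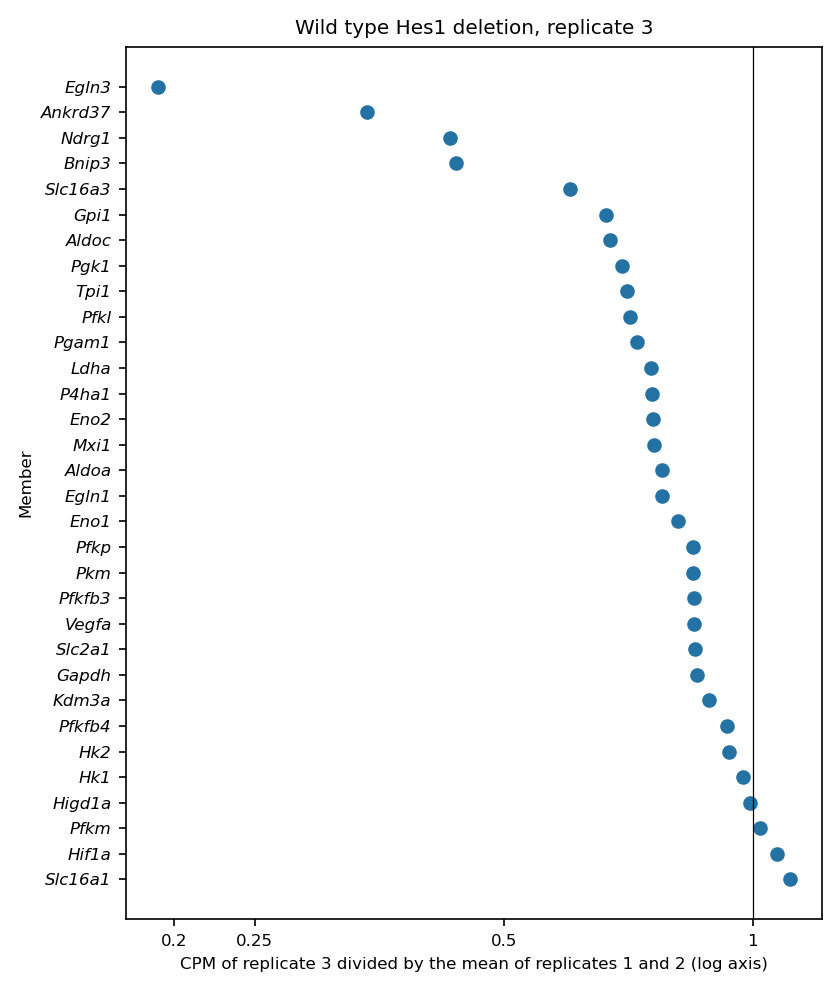
CPM of wild type Hes1 deletion replicate 3 divided by the mean of replicates 1 and 2 for each of the 32 members (log axis; the line marks equal levels). Egln3 lies lowest at 0.191, followed by Ankrd37, Ndrg1 and Bnip3, and Slc16a1 highest at 1.11.

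With Hes1 intact, Hif1a was lower in Notch2 mutant than in wild type osteoclasts, while most other members had positive differences that did not pass the test. Hif1a (chromosome 12, 73901375 to 73947530, GRCm38) stood at 130.5, 113.9 and 119.5 CPM in wild type and at 92.0, 98.9 and 86.0 CPM in mutant libraries with Hes1 loxP. Every mutant library lay below every wild type library. The log2 fold change was -0.37 ± 0.06 (SE), with an adjusted p of 0.00660 by edgeR's quasi-likelihood test with Benjamini-Hochberg adjustment. It passed under all 19 alternatives run, with log2 fold changes from -0.42 to -0.32. Over the same groups osteoclast markers summed to 40430 ± 1680 CPM (SD, n = 3) in wild type and 48470 ± 2351 in the mutant, macrophage markers to 4747 ± 87.9 and 4728 ± 258, and stromal and osteoblast markers to 273 ± 22.5 and 188 ± 66.1. Neutrophil markers summed to 291 ± 40.5 and 227 ± 28.9 CPM. Of 10 macrophage markers, 7 had negative log2 fold changes, and 3 were called lower (Fcgr1, Msr1 and Adgre1). The 3 with positive values, Csf1r (0.12), Cd68 (0.15) and Cx3cr1 (0.23), were not called. Of 12 osteoclast markers 1 was called higher (Ocstamp). Of 11 stromal and osteoblast markers tested 1 was called lower (Cxcl12), as was 1 of 10 neutrophil markers (Mmp8). Erythroid markers were at 0 in all libraries for 5 of 7 genes. The part of these cells in the Hif1a difference was not tested. An antisense gene over its exons, Gm15283, had 1 to 20 counts per library.

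Hif1a was the only member called, 1 of 32, where edgeR called 0.776% of all genes tested. The median log2 fold change of the 32 was 0.15 and that of all genes 0.00, and 27 members were positive (50.9% of all genes). The spread of the members' median between replicates was 0.127 (SD). With single libraries left out, the median log2 fold change ran from 0.10 (mutant Hes1 loxP replicate 3) to 0.22 (wild type Hes1 loxP replicate 1). The members' median per library, each member centred on its mean, overlapped between the groups. It was 0.008 in wild type replicate 1 and -0.021 in mutant replicate 2. Unadjusted p was under 0.05 for 7 members and for 14.2% of all genes.

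All 13 glycolytic enzymes had a positive log2 fold change, from 0.01 to 0.54 with a median of 0.20, and none was called. Aldoc, the brain-type aldolase, was at 47.9, 43.9 and 41.9 CPM in wild type and at 67.2, 52.7 and 70.5 CPM in Notch2 mutant libraries, with no overlap. Its log2 fold change was 0.54 ± 0.13, with an edgeR adjusted p of 0.0628. Its share of aldolase was 1.31 ± 0.0974% (SD, n = 3) in wild type and 1.64 ± 0.0565% in the mutant. Uptake, hexokinase, lactate and bisphosphate kinase members had log2 fold changes between -0.09 and 0.15, with none called.

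All 8 of the remaining HIF targets had positive values too, with a median of 0.25. Vegfa, the vascular growth factor, was at 57.02, 46.0 and 46.6 CPM in wild type and at 62.1, 57.95 and 57.42 CPM in the mutant, groups that lay next to each other without overlap. Its log2 fold change was 0.28 ± 0.08, with an edgeR adjusted p of 0.125. Kdm3a, a histone demethylase, was at 48.9, 54.4 and 50.2 CPM in wild type and at 64.05, 60.8 and 53.3 in the mutant, which overlapped. It gave 0.23 ± 0.08 (edgeR adjusted p = 0.151). Egln3 (chromosome 12, 54178981 to 54203860) was at 8.58, 7.05 and 6.73 CPM in wild type and at 13.1, 10.6 and 11.9 CPM in the mutant, with every mutant library higher. Its log2 fold change was 0.70 ± 0.36, with an edgeR adjusted p of 0.394. Of the 32 members, 5 lay wholly higher and 1 wholly lower in the mutant. Groups did not overlap for 18.6% of 12851 genes with a mean count of at least 10, a share near that of the members.

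The number of calls depended on a library outside both groups, replicate 3 of wild type cells with Hes1 deleted, which enters the estimate of the spread shared by all 12. Without it, edgeR called 2.12% of all genes and 6 of the 32 members. Hif1a was called lower, at -0.38 ± 0.06 (adjusted p = 0.00249). The 5 called higher were Aldoc at 0.53 ± 0.10 (0.00632), Egln3 at 0.69 ± 0.16 (0.0278), Ndrg1 at 0.41 ± 0.10 (0.0349), Bnip3 at 0.39 ± 0.10 (0.0449) and Pgam1 at 0.25 ± 0.07 (0.0484). The 6 libraries compared are the same, and the median of the 32 was 0.14. That library was singled out because most of the members were low in it, so their smaller spread without it follows from the choice. The SE of Egln3 was 0.36 with that library and 0.16 without it. The 5 further calls are a description, not independent support.

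**Figure D4:**
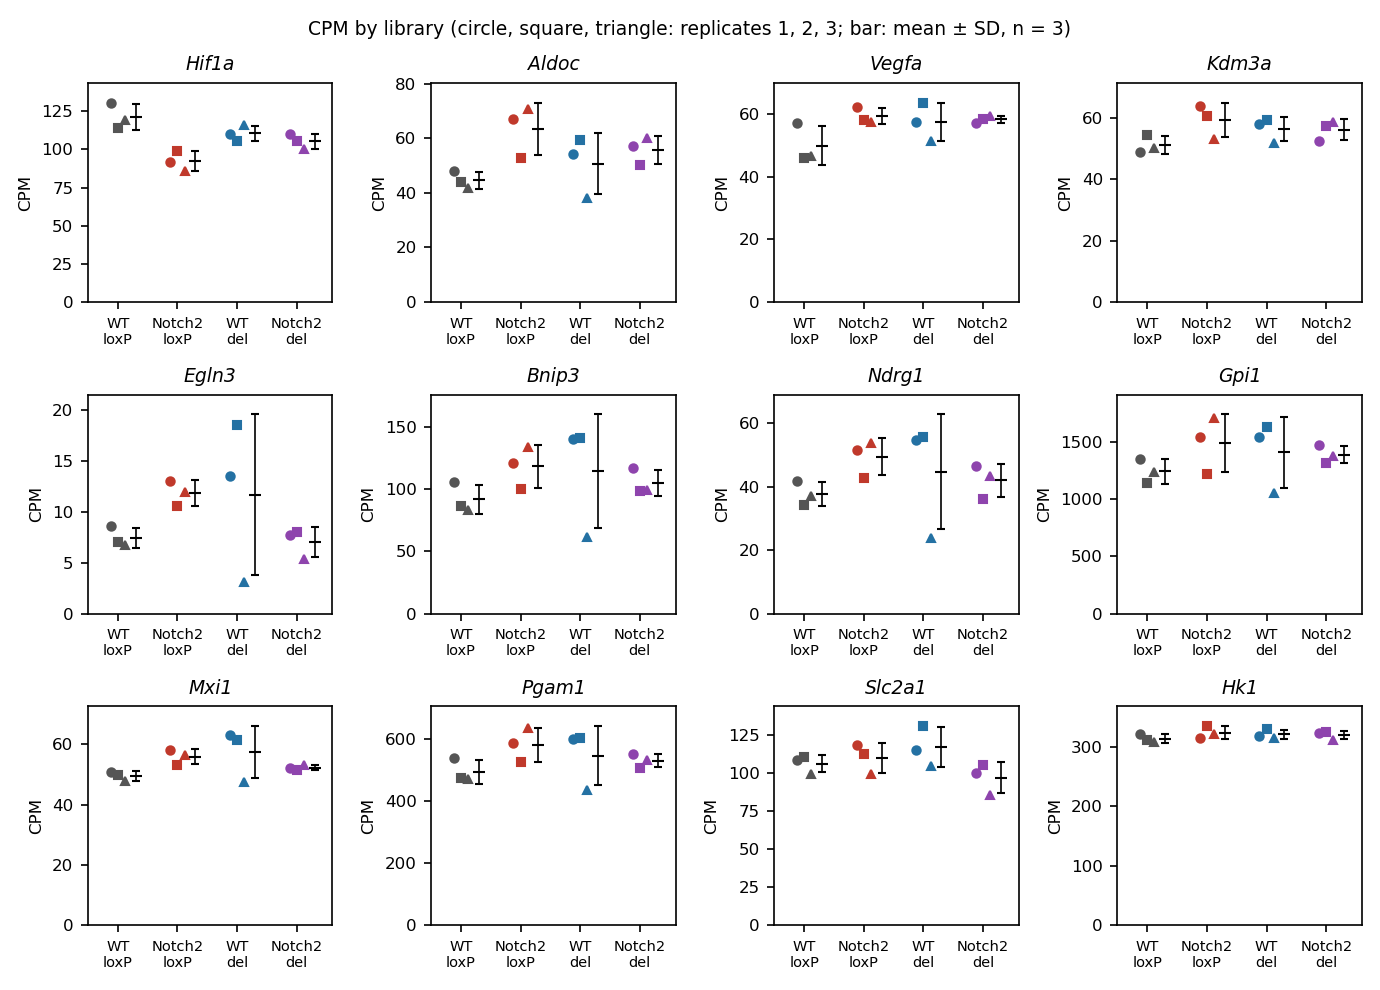
CPM of 12 members in every library by group (loxP and del stand for Hes1 loxP and Hes1 deletion; Notch2 for the Notch2 mutant), with circles, squares and triangles for replicates 1, 2 and 3 and a bar for the mean and SD of 3 libraries. The Notch2 mutant Hes1 loxP libraries of Hif1a lie between 86.0 and 98.9 CPM, under all wild type Hes1 loxP libraries, and the triangle of the wild type Hes1 deletion group is low for Egln3, Bnip3 and Ndrg1.

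With Hes1 deleted, no member was called between Notch2 mutant and wild type osteoclasts by edgeR, DESeq2 or limma-voom, where edgeR called 0.0149% of all genes. The median of the 32 was -0.07, with 6 positive, and 4 members had an unadjusted p under 0.05 (6.69% of all genes did). Hif1a was at 110.2, 105.6 and 115.7 CPM in wild type and at 110.1, 105.8 and 100.4 CPM in the mutant, so the groups overlapped, with a log2 fold change of -0.06 ± 0.06. The 4 members with the smallest p had negative log2 fold changes. Slc2a1, the main glucose transporter, was at 115.3, 130.9 and 104.8 CPM in wild type and at 99.7, 105.1 and 85.5 in the mutant, a slight overlap (-0.26 ± 0.08, edgeR adjusted p = 0.628). Hk2 was at 81.5, 73.2 and 72.5 CPM against 60.7, 66.9 and 57.2, with no overlap (-0.29 ± 0.09, edgeR adjusted p = 0.636). Pfkfb3 stood at 29.2, 29.4 and 24.9 against 22.4, 24.6 and 21.3 CPM, also without overlap (-0.28 ± 0.09, edgeR adjusted p = 0.628), and Slc16a1 gave -0.16 ± 0.08 (0.745). These genes bring glucose in, trap it, speed the phosphofructokinase step and carry lactate. Groups did not overlap for 2 of the 32 members, both lower, and for 12.5% of 12851 genes with a mean count of at least 10.

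Without wild type Hes1 deletion replicate 3, the median was -0.19 and 31 members were negative. Egln3, for whose low value that library was set apart, was then called lower in the mutant, at -1.19 ± 0.17 (edgeR adjusted p = 0.00870), 1 of 32 members where 0.0366% of all genes were called. With that library, Egln3 was at 13.5, 18.5 and 3.07 CPM in wild type and at 7.75, 8.00 and 5.36 CPM in the mutant, groups that overlapped, and the log2 fold change was -0.74 ± 0.36. The median of the 32 was 0.01 with replicate 2 of the same group left out, -0.01 with replicate 1 left out and -0.04 with mutant Hes1 deletion replicate 2 left out, so its size and sign rested on single libraries. Stromal and osteoblast markers summed to 343 ± 9.82 CPM (SD, n = 3) in wild type and 246 ± 44.9 in the mutant, and osteoclast markers to 35760 ± 3452 and 40220 ± 2090. Their part in these values was not tested.

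Deletion of Hes1 in wild type osteoclasts gave no member call in edgeR, DESeq2 or limma-voom, where edgeR called 0.0373% of all genes. Osteoclast markers without Ctsk summed to 31410 ± 1502 CPM (SD, n = 3) with Hes1 loxP and 31170 ± 3001 after deletion, while Ctsk itself, cathepsin K, had a log2 fold change of -0.995 (edgeR adjusted p = 4.84e-07). Stromal and osteoblast markers summed to 273 ± 22.5 CPM with Hes1 loxP and 343 ± 9.82 after deletion, with no overlap, and neutrophil markers to 291 ± 40.5 and 225 ± 38.0. None of these markers other than Ctsk was called, and their part in the members' values was not tested. The median log2 fold change of the 32 was 0.12, with 27 positive, and 4 had an unadjusted p under 0.05 (5.93% of all genes). Ankrd37, a small ankyrin repeat protein and HIF target, was at 1.08, 1.14 and 0.612 CPM with Hes1 loxP and at 2.49, 2.64 and 0.877 CPM after deletion, which overlapped (1.08 ± 0.37, edgeR adjusted p = 0.681). Hif1a gave -0.15 ± 0.06 (0.749) and Vegfa 0.19 ± 0.08 (0.809). Mxi1, a MYC antagonist, was at 51.0, 49.9 and 47.7 CPM and then at 63.2, 61.6 and 47.4 CPM, with the low value again in replicate 3 (0.20 ± 0.09, edgeR adjusted p = 0.815).

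The same comparison without replicate 3 of the deletion group had a median of 0.22, with 29 members positive, and without replicates 1 and 2 in turn it had medians of 0.06 and 0.04. Leaving out replicate 3 brought 4 of 32 members past the test, where 0.190% of all genes were called. That library was singled out because these genes were low in it, so higher values without it follow from the choice, and the calls are a description, not independent support. They were Egln3 at 1.10 ± 0.16 (edgeR adjusted p = 0.00542), Bnip3 at 0.61 ± 0.11 (0.0169), Mxi1 at 0.32 ± 0.06 (0.0313) and Ndrg1 at 0.54 ± 0.11 (0.0388), all higher after deletion. Bnip3 (chromosome 7, 138890836 to 138909519) was at 105.2, 86.2 and 83.4 CPM with Hes1 loxP and at 140.1, 141 and 61.6 CPM after deletion. Ndrg1 (chromosome 15, 66929318 to 66969640) was at 41.7, 34.3 and 37.0 CPM and then at 54.7, 55.4 and 23.8 CPM. For each of these genes the first 2 deletion libraries lay above, and replicate 3 below, all wild type Hes1 loxP libraries.

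In Notch2 mutant osteoclasts the deletion of Hes1 gave no member call either, where 0.0373% of all genes were called (0.0439% and no member without wild type Hes1 deletion replicate 3). Unadjusted p was under 0.05 for 4 members and 4.76% of all genes, and DESeq2 and limma-voom called no member. The median of the 32 was -0.11, with 28 negative. With single libraries left out it ran from -0.18 (Notch2 mutant Hes1 loxP replicate 2) to -0.08 (replicate 3 of that group). Higd1a, a mitochondrial inner membrane protein induced in hypoxia, gave -0.17 ± 0.06 (edgeR adjusted p = 0.816), Hif1a 0.16 ± 0.06 (0.849), Slc2a1 -0.21 ± 0.08 (0.959) and Egln3 -0.78 ± 0.37 (0.977). Hif1a was at 92.0, 98.9 and 86.0 CPM with Hes1 loxP and at 110.1, 105.8 and 100.4 CPM after deletion, with every deletion library higher. In wild type cells the Hif1a values with and without Hes1 overlapped. In Notch2 mutant cells 1 of the 32 members lay wholly higher and 3 wholly lower after deletion. Groups there did not overlap for 11.1% of 12851 genes with a mean count of at least 10.

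**Figure D5:**
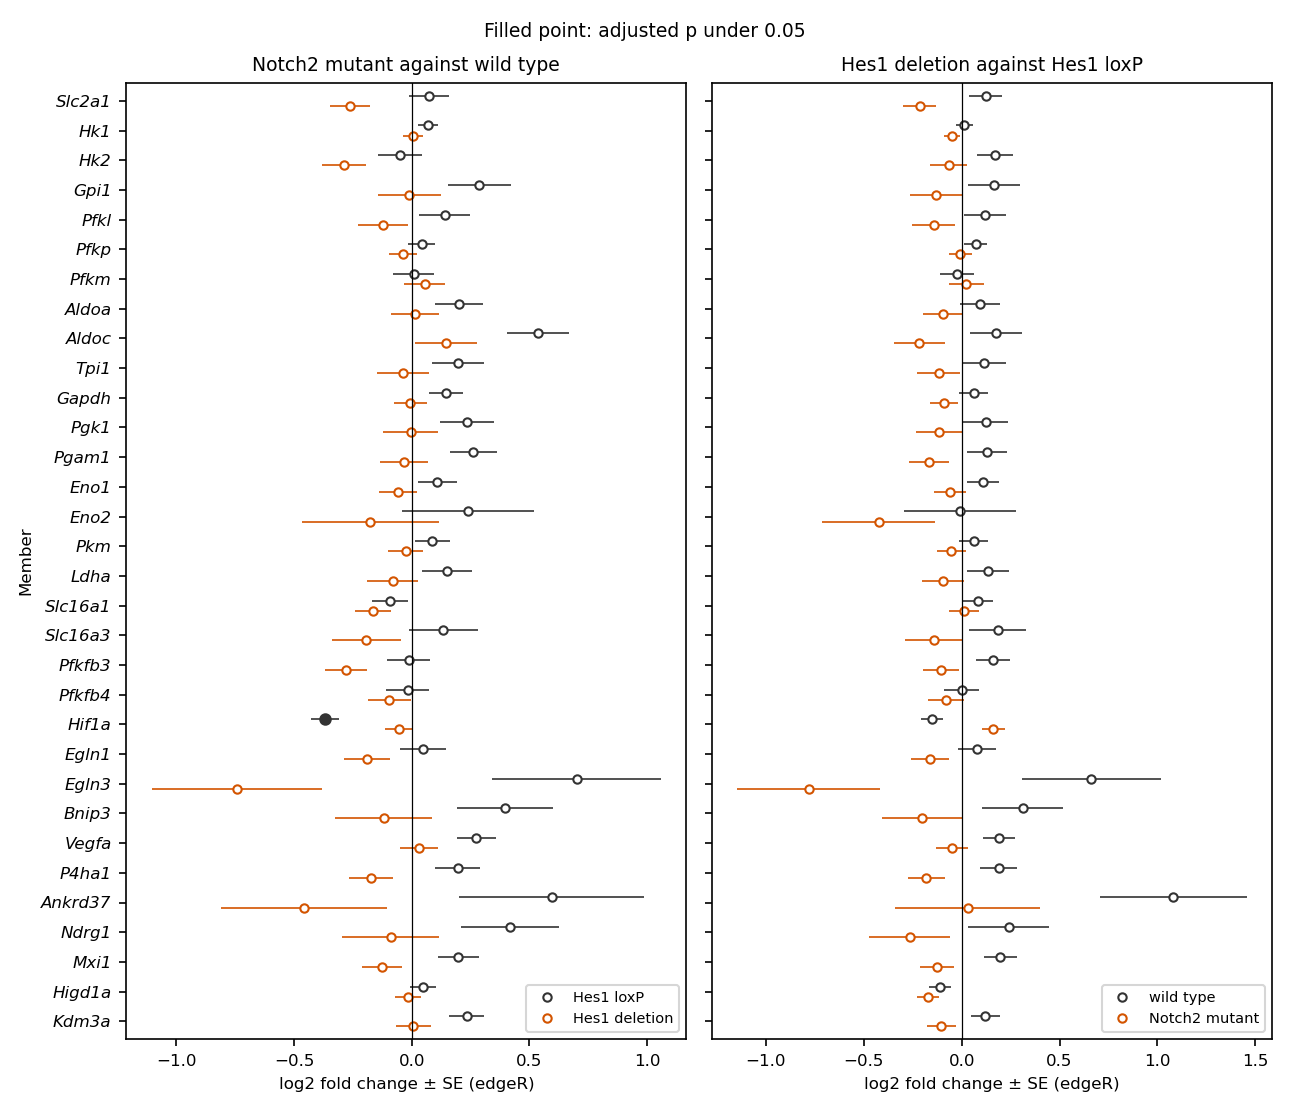
Log2 fold change with its SE from edgeR for each member, on the left for the Notch2 mutant against wild type with Hes1 loxP (dark) or Hes1 deletion (orange), on the right for the Hes1 deletion in wild type (dark) and Notch2 mutant cells (orange). The filled point is Hif1a at -0.37, the single value with an adjusted p under 0.05.

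The difference between the Notch2 effects with Hes1 deleted and with Hes1 loxP was tested as an interaction. No gene passed (0% of 13403) in edgeR, DESeq2 or limma-voom, and 63 did with no filter, while 506 genes (3.78%) and 6 members had an unadjusted p under 0.05 in edgeR. Over the 32 members the median was -0.24, with 30 negative; the median was -0.35 with wild type Hes1 deletion replicate 3 left out and -0.155 with replicate 2 left out. Hif1a gave 0.31 ± 0.08, with an unadjusted p of 0.00129 and an edgeR adjusted p of 0.999 (0.0670 to 1.00 over 18 alternatives). Slc2a1 gave -0.34 ± 0.12, Egln3 -1.45 ± 0.51 and P4ha1, a collagen prolyl hydroxylase, -0.37 ± 0.13, each with an adjusted p of 0.999. The Hif1a difference passed the test with Hes1 loxP and not with Hes1 deleted, but the test of the difference between them did not pass over all genes.

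Leaving out wild type Hes1 deletion replicate 3 gave 4 members with an interaction, where 0.0878% of all genes had one. They were Egln3 at -1.88 ± 0.23 (edgeR adjusted p = 0.00230), Bnip3 at -0.81 ± 0.14 (0.0311), Ndrg1 at -0.80 ± 0.14 (0.0311) and Mxi1 at -0.45 ± 0.08 (0.0415). In those libraries the mean of each was above wild type in Notch2 mutant cells with Hes1 loxP, and below it with Hes1 deleted. As in the comparisons above, the library was chosen for its low values of these genes. These calls rest on the 2 remaining libraries of that group, which are assumed to vary like the other groups.

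Averaged over Hes1 status, Hif1a was lower in the Notch2 mutant by -0.21 ± 0.04 (edgeR adjusted p = 0.0135), the only member called where 1.89% of all genes were. In the same comparison 6 of 12 osteoclast markers were called higher, and 4 of 10 macrophage markers and 1 of 11 stromal and osteoblast markers lower; their part in the Hif1a and Ldhb differences was not tested. Hif1a passed under 17 of 18 alternatives, and gave -0.20 with an adjusted p of 0.0599 without Notch2 mutant Hes1 deletion replicate 3. That fit called 63 genes in all, against 253 with all libraries. With wild type Hes1 deletion replicate 3 left out Hif1a was again the only member called (1.16% of all genes). Aldoc gave 0.34 ± 0.09 (edgeR adjusted p = 0.0661), Vegfa 0.15 ± 0.06 (0.181) and Hk2 -0.17 ± 0.07 (0.205). Over the 32 members the median was 0.03, and with single libraries left out it ran from -0.03 (wild type Hes1 deletion replicate 3) to 0.06 (replicate 2 of that group). Averaged over Notch2 genotype, the Hes1 deletion gave no member call in edgeR, DESeq2 or limma-voom, where 0.0821% of all genes were called (0.110% and no member without that library), and the median was 0.00. Unadjusted p was under 0.05 for 1 member, Higd1a, and for 6.89% of all genes. Higd1a was at 44.3 to 48.7 CPM in the 6 Hes1 loxP libraries and at 40.8 to 43.9 CPM in the 6 deletion libraries, which did not overlap, yet its log2 fold change of -0.14 ± 0.04 had an edgeR adjusted p of 0.372.

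Among other glycolysis genes, 18 of 25 passed the filter, and only Ldhb was called in any of these comparisons. Ldhb, the lactate dehydrogenase subunit that favours lactate oxidation, was at 60.0, 70.9 and 69.4 CPM in wild type and 76.6, 76.8 and 74.1 in mutant libraries with Hes1 loxP. With Hes1 deleted it was at 65.9, 66.2 and 64.6 in wild type and 75.2, 77.6 and 74.6 CPM in the mutant, so every mutant library was above every wild type library. Averaged over Hes1 status, it was higher by 0.21 ± 0.04 (edgeR adjusted p = 0.0133) and passed under 18 of 18 alternatives, while Ldha gave 0.03 ± 0.08. The median of the other glycolysis genes in that comparison was 0.03.

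Of 40 other HIF targets, 36 were tested. Hmox1 and Loxl2 were lower in the Notch2 mutant averaged over Hes1 status, and none of the 36 was called higher. Hmox1, heme oxygenase, was at 444.8, 381.2 and 369.2 CPM in wild type and 341.0, 293.5 and 328.9 in mutant Hes1 loxP libraries, and gave -0.23 ± 0.05 (edgeR adjusted p = 0.0203). Loxl2, a collagen crosslinking enzyme, gave -0.59 ± 0.13 (edgeR adjusted p = 0.0268). Loxl2 passed under 14 of 18 alternatives and Hmox1 under 17. Both lost the call when mutant Hes1 deletion replicate 3 was left out, a fit that called 63 genes in all. Hmox1 lost it in no other case (highest adjusted p 0.0754). Loxl2 also lost it without replicate 1 and without replicate 2 of wild type Hes1 loxP, and without replicate 2 of mutant Hes1 loxP (highest adjusted p 0.0925). Stromal and osteoblast markers were lower in both mutant groups, as given above, and their part in these values was not tested. The median of the 36 was 0.06 in the mutant with Hes1 loxP and -0.06 with Hes1 deleted. Of 16 other components of the HIF pathway, among them Arnt, Vhl and Egln2, 14 were tested and none was called in the 7 comparisons, and none of the 8 pentose phosphate genes was. Their medians lay near that of all genes in the Notch2 comparison with Hes1 loxP, at -0.01 and -0.045.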

How the data were processed

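RNA of 12 osteoclast cultures was sequenced as stranded mRNA libraries with paired-end reads of 75 bp, per the labels' protocols. The deposited values are raw counts per gene ID, not normalized. Per the submitters' processing notes, the authors used HISAT2, SAMtools, Picard, HTSeq and DESeq2 with GRCm38. The sources used here name no version, annotation release or strand setting for this, and without a stated strand setting reads of overlapping antisense genes may not be separated. Single antisense genes overlap 22.3% of the exon length of Bnip3 (Gm45507), 22.5% of Higd1a (Gm47112) and 22.7% of Ankrd37 (Lrp2bp). On the same strand, where a strand setting does not separate reads, Gm49759 overlaps 15.3% of Pkm and Gm26513 10.2% of Pfkm. Reads of near-identical processed copies of Gapdh, Pgk1, Pgam1 and other enzymes may be left out or shared, so those levels are uncertain. Summary rows, 15.8 to 19.0% of each file, stayed out of library sizes and tests. Of 55414 IDs, 52133 were named by GENCODE M21, which also gave positions and exon lengths.

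Genes were tested in R 4.3.3 with edgeR 4.0.16 (quasi-likelihood F-test, TMM, filterByExpr with a minimum count of 10 and total of 15, 1 fit of all 12 libraries with a mean per group). Tests were two-sided, adjusted by Benjamini-Hochberg over 13403 genes, with a threshold of 0.05; bracketed values after a fold change are such adjusted p-values. The SE comes from the F statistic. CPM is over assigned counts without TMM. The 7 comparisons were the Notch2 mutation at each Hes1 status, the Hes1 deletion in each Notch2 genotype, their interaction and the 2 averages. Comparisons share libraries: the 2 Hes1 loxP groups and the 2 deletion groups each enter several of them. The alternatives tried were DESeq2 1.42.0, limma-voom (limma 3.58.1), RLE in place of TMM, no filter on counts, a filter at a mean of 50 counts, a replicate block, fits of only the groups compared, and leaving out each library. Principal transcript lengths were chosen as an alternative after seeing the data. The script was checked on simulated counts.

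The members and lists were chosen with earlier results of these data known. Per comparison, members past the threshold and the 4 with the smallest p are given with their statistics; other genes of the lists are named where called, except 1 that is not reported here. Bnip3, Ndrg1, Egln3, Mxi1 and Pgam1 are given beyond that because they were called without wild type Hes1 deletion replicate 3.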

Additional observations from a re-analysis of the deposited data

How the results depend on the processing

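Hif1a with Hes1 loxP kept its direction and its call under every alternative run. The number of members called with Hes1 loxP between Notch2 genotypes was 1, but 13 with no filter. It was 1 to 6 with each library left out, and 3 with only the groups compared, where 119 of 13022 genes were called. With Hes1 deleted it was 4 with no filter and 0 to 1 with a library left out. For the Hes1 deletion in wild type cells it was 2 with no filter and 0 to 4 with a library left out, and in Notch2 mutant cells 1 with no filter. The interaction gave 9 members with no filter and 0 to 4 with a library left out, and the Notch2 average 6 and 0 to 2. The cause of the larger counts with no filter, which tests 25080 genes and calls 657 with Hes1 loxP against 104, was not tested. No filter also called 853 genes against 253 for the Notch2 average, and 138, 135, 110 and 63 against 2, 5, 5 and 0 in the other comparisons in the order above. For the Hes1 average it called 184 and DESeq2 20 genes, against 11, and limma-voom called 1 gene against 2 with Hes1 deleted and 3 against 5 for the deletion in mutant cells. DESeq2 called 242 and 420 genes for the Notch2 comparison with Hes1 loxP and the average, and leaving out single libraries gave 26 (wild type Hes1 loxP replicate 1) to 289 (wild type Hes1 deletion replicate 3) for the former. Aldoc passed with Hes1 loxP with no filter, with only the groups compared, and with either mutant Hes1 loxP replicate 2 or wild type Hes1 deletion replicate 3 left out. For the Notch2 average, leaving out replicate 2 of mutant Hes1 loxP or of wild type Hes1 deletion gave 2 members. Leaving out replicate 3 of mutant Hes1 deletion gave 0. In that order these fits called 281 of 13663, 188 of 13632 and 63 of 13652 genes, against 253 of 13403 with all libraries.

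Over all groups, correlations of deviations gave no clear pairing by replicate number. Same-numbered libraries of different groups had values between -0.09 and 0.107, with 1 of 18 pairs over 0.1. Libraries with different numbers had values between -0.1 and 0.121, with 2 of 36 pairs over 0.1. Between the 2 Hes1 loxP groups, however, same-numbered pairs were at 0.077 to 0.107 and all others at -0.076 to -0.020. The labels do not state whether the numbers pair those samples. A replicate block left the members called at 1 for the Notch2 comparison with Hes1 loxP (148 genes in all, against 104 without it). The block called 325 genes against 253 for the Notch2 average and changed no member's call in any comparison. Fits of only the groups compared do not exist for the interaction and the averages. Depth limits Eno2 and Ankrd37 most, each with a mean of 24.25 counts per library.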

Other observations

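Genes outside the members also stood low in wild type Hes1 deletion replicate 3. They were chosen after their values were seen, from the 12 with the lowest ratio to the mean of replicates 1 and 2 among 10554 genes with a mean count of at least 50. Tdrd9, a germline helicase gene, was lowest at 3.89 CPM against 27.9, and Mmp12, the macrophage elastase, was at 6.46 against 19.2 CPM. Ak4, a mitochondrial adenylate kinase known as a HIF target, was at 13.7 against 29.0 CPM, and Selenbp1, a selenium-binding protein, at 8.52 against 18.5 CPM. Of the 12 lowest genes, Egln3, Ndrg1 and Bnip3 are members described above. With a single library on one side, these values carry no replicate check.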
